A study of Mus musculus with 11 samples.

Results

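The 4 miRNAs described here are the arms of a pair of neighbouring mouse hairpins, Mir191 and Mir425: mmu-miR-191-5p, mmu-miR-191-3p, mmu-miR-425-5p and mmu-miR-425-3p. They were chosen by name, as every entry of the count table with the stem miR-191 or miR-425, and are 4 of the 1281 mature miRNAs in that table. The prefix mmu, for mouse, is left out below. All 4 were among the 388 miRNAs with enough reads to be tested. Small RNA of C57/B6 mice that lack telomerase and have short telomeres had been sequenced from liver, in a search for miRNAs that depend on the tumour suppressor p53. The group labelled G4/p53 +/+ has intact p53 (libraries 1 to 5, n = 5), and the group labelled G4/p53 -/- lacks it (libraries 6, 7, 8, 10, 11 and 12, n = 6). Both groups lack telomerase, no treatment is named in the labels, and no group with normal telomeres was analysed here. Age and sex do not stand in the labels, nor whether every library is a different mouse, so the p-values measure the spread between these libraries.

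A miRNA is cut from a hairpin in a longer transcript, and the 5p and 3p arms of the hairpin can both become mature miRNAs, of which one is usually kept far more often. The kept arm pairs with messenger RNAs mainly through its seed, bases 2 to 8, and lowers their output. miR-191 and miR-425 are known as a cluster read from the plus strand next to or within Dalrd3, a gene for a protein with an anticodon-binding domain. miR-191-5p is abundant in many tissues and is widely used as a reference to which other miRNA measurements are scaled.

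The mature sequences are shown because the arms share no seed with each other. Each is written 5′ to 3′ with its seed in capitals, from RefSeq on GRCm38.p6.
miR-191-5p: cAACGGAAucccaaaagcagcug
miR-191-3p: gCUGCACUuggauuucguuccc
miR-425-5p: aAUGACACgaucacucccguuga
miR-425-3p: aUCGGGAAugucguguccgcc
No other mature miRNA of the RefSeq table carried the seed of miR-191-5p, miR-191-3p or miR-425-3p. The seed of miR-425-5p was shared with 1 other, miR-489-3p, which had 0 reads in these libraries. miR-191-5p begins with C, as did 22.4% of the 317 tested miRNAs with a RefSeq sequence, and miR-191-3p begins with G, as did 8.52%. Both miR-425 arms begin with A, as did 27.4%, while 41.6% began with U.

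The hairpins follow with both mature arms in capitals, to show how far apart the arms lie and which bases can pair.
Mir191: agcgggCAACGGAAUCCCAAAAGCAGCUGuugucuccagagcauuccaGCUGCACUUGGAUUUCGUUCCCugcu
Mir425: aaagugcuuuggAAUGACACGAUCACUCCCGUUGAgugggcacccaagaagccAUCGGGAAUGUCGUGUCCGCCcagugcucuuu
Mir191 is 74 bases long with 19 bases between its arms, and Mir425 is 85 bases long with 18. In the fold predicted by RNAfold, 17 of the 23 bases of miR-191-5p paired with miR-191-3p, at -35.0 kcal/mol for the hairpin. For miR-425-5p the count was 14 of 23, at -31.7 kcal/mol.

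Mir191 lies on chromosome 9 from 108568319 to 108568392, and Mir425 from 108568777 to 108568861, both on the plus strand of GRCm38 with 384 bases between them. The annotations differ on their host. GENCODE M21 starts Dalrd3 at 108569886, so that Mir191 and Mir425 end 1493 and 1024 bases before it, and places both hairpins inside the exon of a single-exon transcript (108567533 to 108569174) of the long noncoding RNA gene 4833445I07Rik. In the spliced transcript of that gene, Mir191 lies in intron 1 and Mir425 lies outside. RefSeq gives Dalrd3 a span of 108567484 to 108572773, which holds both hairpins. GENCODE also annotates a miRNA gene, Gm24083, on the minus strand across Mir191 (108568295 to 108568414). The sources used here do not say whether the counting used strand, so reads of the opposite strands could not be told apart.

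**Figure D1:**
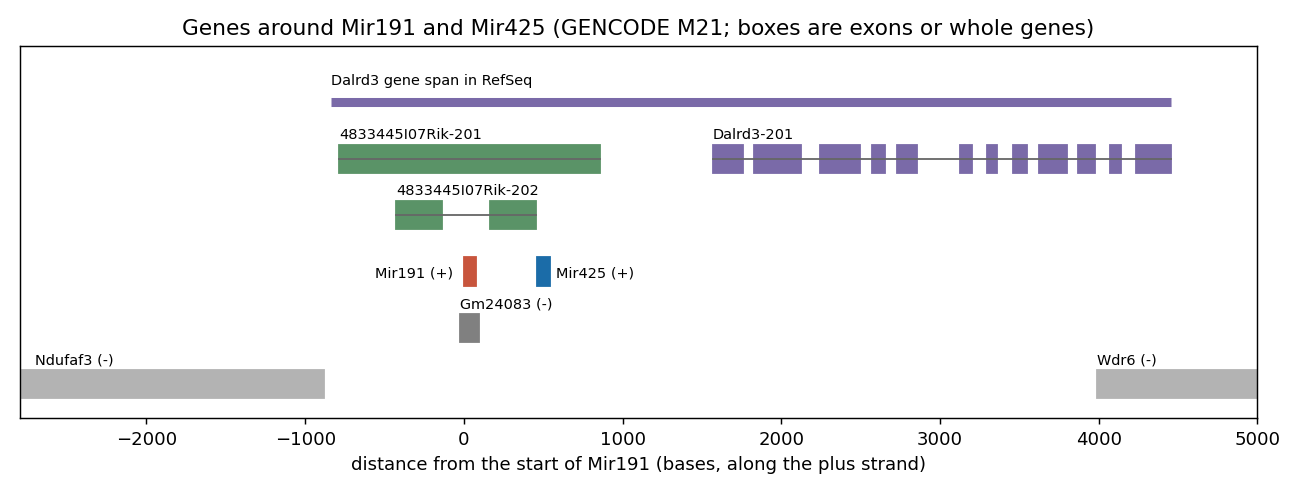
Genes around Mir191 and Mir425 by distance in bases from the start of Mir191; boxes are exons of GENCODE M21 transcripts or whole genes, and the top bar is the Dalrd3 gene span of RefSeq. Both hairpins lie inside the long exon of 4833445I07Rik and upstream of the GENCODE Dalrd3 transcript, but inside the RefSeq span.

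Total counts ran from 1905609 to 6682492 per library, and the 3 shallowest libraries were p53+/+ libraries 1 and 2 and p53-/- library 11, at 1965468, 1905609 and 2202415. The other 8 held at least 4453903. A count of 0 in a library allows up to 3 counts, or 0.449 to 1.57 counts per 1000000 counts of the library (CPM). The tissue label was met by the hepatocyte miRNA miR-122-5p, which averaged 571105 normalised CPM, that is CPM after TMM scaling, the unit of all levels below unless stated. Of the 7 lists of cell type markers, none had a member called between genotypes by edgeR at an adjusted p of 0.05. The share called over all 388 tested miRNAs was 0.258%. No list had a member at 0 in all libraries. The pancreas markers, of which 2 of 4 were tested, summed to 410 CPM in p53+/+ library 5. In the other libraries they summed to between 2.86 and 88.0 CPM.

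The locus was dominated by a single arm. Of 208040 reads of the cluster over all libraries, 198154 (95.2%) were miR-191-5p, 8178 (3.93%) miR-425-5p, 1573 (0.756%) miR-425-3p and 135 (0.0649%) miR-191-3p. Among the 388 tested miRNAs the arms ranked 26, 111, 179 and 358 by mean level, in that order. The order of the 4 arms was the same in all 11 libraries, where miR-191-5p ranked between 23 and 28 among all miRNAs of the library and miR-191-3p between 307 and 403.

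miR-191-5p stood at 5102, 5376, 3525, 3795 and 4253 normalised CPM in p53+/+ libraries 1 to 5. In p53-/- libraries 6, 7, 8, 10, 11 and 12 it stood at 3685, 3292, 4253, 3456, 3566 and 3453. Libraries 1 and 2 were the high ones, above every other library of either genotype, while the remaining p53+/+ libraries lay among or close to the p53-/- values. It averaged 4410.3 ± 806 CPM (SD, n = 5) with p53 and 3617 ± 338 CPM (SD, n = 6) without. The fitted log2 fold change, p53-/- minus p53+/+, was -0.29 and its 95% interval ran from -0.60 to 0.03 (SE 0.15). The adjusted p over all tested miRNAs in edgeR's quasi-likelihood test was 0.330. The interval covers p53-/- levels from 0.660 to 1.02 times the p53+/+ level. All 6 p53-/- libraries were below the p53+/+ median, library 8 by less than 1 CPM. A two-sided exact permutation test of log2 normalised CPM over all arrangements of the libraries gave an unadjusted p of 0.0498 for the difference of -0.27. The value rested on libraries 1 and 2: without both it was -0.05 (adjusted p = 0.896 in edgeR), and without the 3 shallowest libraries, an alternative chosen after the values were seen, it was -0.08 (95% interval -0.38 to 0.22).

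The level of miR-191-5p also went with total counts when no scaling beyond the total was used. In CPM on the total count the 3 shallowest libraries were the 3 highest, at 5444 and 6250.0 CPM in p53+/+ libraries 1 and 2 and 4434 CPM in p53-/- library 11, against 3065 to 4016 CPM in the 8 deeper libraries. Of the 388 tested miRNAs, 6.7% had the 3 shallow libraries above all 8 deeper ones on that scale, and of the 4 arms only miR-191-5p did. After TMM scaling, whose factor for library 11 was 1.24, that library was at 3566 CPM, inside the range of the deeper ones, and 0 of 4 arms showed the separation, against 2.06% of tested miRNAs. The part of depth in the genotype value was not tested beyond leaving those libraries out. On the TMM scale, not that of the total count, the same libraries were also low in the hepatocyte markers. These summed to 580720, 507119 and 487704 normalised CPM in libraries 1, 2 and 11. That sum was 566506 normalised CPM in the deeper library 12 and between 607657 and 844844 in the other libraries. TMM factors were 1.07, 1.16, 1.24 and 1.07 in libraries 1, 2, 11 and 12, and between 0.832 and 1.03 in the others. A factor above 1 makes normalised CPM lower than CPM on the total count, and the hepatocyte sum was not taken on the total count. Most of the hepatocyte sum came from miR-122-5p, which averaged 571105 normalised CPM over the 11 libraries, and the other hepatocyte markers were not followed singly. The part of the hepatocyte miRNAs in the miR-191-5p values was not tested.

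The leukocyte markers were 6 miRNAs of blood and immune cells, all tested. They summed to between 805 and 1822 CPM in p53+/+ libraries (median 1269.9) and between 746 and 1190.1 CPM in p53-/- libraries (median 949). Of the 6, miR-142-5p, miR-142-3p and miR-223-3p averaged 16.7, 5.82 and 32.9 CPM over the 11 libraries. Most of the sum thus came from the other leukocyte markers. Library 3 had the highest leukocyte sum, 1822 CPM, and the lowest miR-191-5p level of the p53+/+ libraries. Libraries 1 and 2 were at 1269.9 and 1199 CPM. The part of these cells in the miR-191-5p values was not tested, and in bulk liver fewer cells of a type cannot be told apart from less RNA per cell.

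miR-191-3p, the other arm of the same hairpin, was close to the limit of detection, with 4 to 24 reads in a library. Its levels were 3.34, 2.71, 1.17, 2.02 and 4.28 CPM in p53+/+ libraries 1 to 5. Those of p53-/- libraries 6, 7, 8, 10, 11 and 12 were 2.29, 3.14, 2.59, 2.25, 1.46 and 3.35 CPM. The p53+/+ values enclosed the p53-/- values. They averaged 2.70 ± 1.19 CPM (SD, n = 5) with p53 and 2.51 ± 0.681 CPM (SD, n = 6) without. The fitted difference on the log2 scale was -0.03, with a 95% interval of -0.81 to 0.76 and an SE of 0.37 (edgeR, adjusted p = 0.986). Differences from 0.568 to 1.70 times lie within that interval, so no difference was detected and differences of that size were not excluded at this depth.

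miR-425-5p, the main arm of Mir425, stood at 99.2, 148, 159.9, 170.4 and 199.8 CPM in p53+/+ libraries 1 to 5. In p53-/- libraries 6, 7, 8, 10, 11 and 12 it stood at 109.8, 138, 183, 141, 115 and 190.8 CPM. Library 1, which was second highest in miR-191-5p, held the least miR-425-5p, and both genotypes ran from about the same low to about the same high. The mean was 156 ± 36.8 CPM (SD, n = 5) with p53 and 146 ± 33.8 CPM (SD, n = 6) without. On the log2 scale the fit gave -0.09, with a 95% interval of -0.53 to 0.36 and an SE of 0.21 (edgeR, adjusted p = 0.853). Without libraries 1 and 2 it was -0.24 (adjusted p = 0.578 in edgeR).

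miR-425-3p stood at 30.5, 37.9, 29.3, 37.2 and 29.7 CPM in p53+/+ libraries 1 to 5. In the p53-/- libraries, in the same order as above, it stood at 20.6, 32.4, 32.9, 28.1, 23.7 and 28.5 CPM. Libraries 2 and 4 were the highest and p53-/- libraries 6 and 11 the lowest, with the others between 28.1 and 32.9 CPM. The p53+/+ libraries averaged 32.9 ± 4.24 CPM (SD, n = 5) and the p53-/- libraries 27.7 ± 4.81 CPM (SD, n = 6). On the log2 scale the fit gave -0.25, with a 95% interval of -0.63 to 0.14 and an SE of 0.18 (edgeR, adjusted p = 0.529).

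Of the arms, 0 of 4 passed in edgeR, where 0.258% of the 388 tested miRNAs (1, miR-34a-5p) were called. At an unadjusted p under 0.05 the count was also 0 of 4 in edgeR, against 17.3% of tested miRNAs. DESeq2 called 0 of the 3 arms to which it gave an adjusted p, against 17 of 305 miRNAs (5.57%). It gave 1 arm of 4, miR-191-5p, an unadjusted p under 0.05 (0.0362, adjusted p = 0.179), as it did 19.7% of the tested miRNAs to which it gave a p. The genotypes' ranges overlapped for all 4 arms, and 2.32% of tested miRNAs had ranges that did not. All 4 fitted values were below 0 with TMM scaling, with a median of -0.17, although the other 3 arms lay above 0 when scaled to miR-191-5p. With TMM scaling 51% of tested miRNAs were below 0, and the median over all tested was -0.01.

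**Figure D2:**
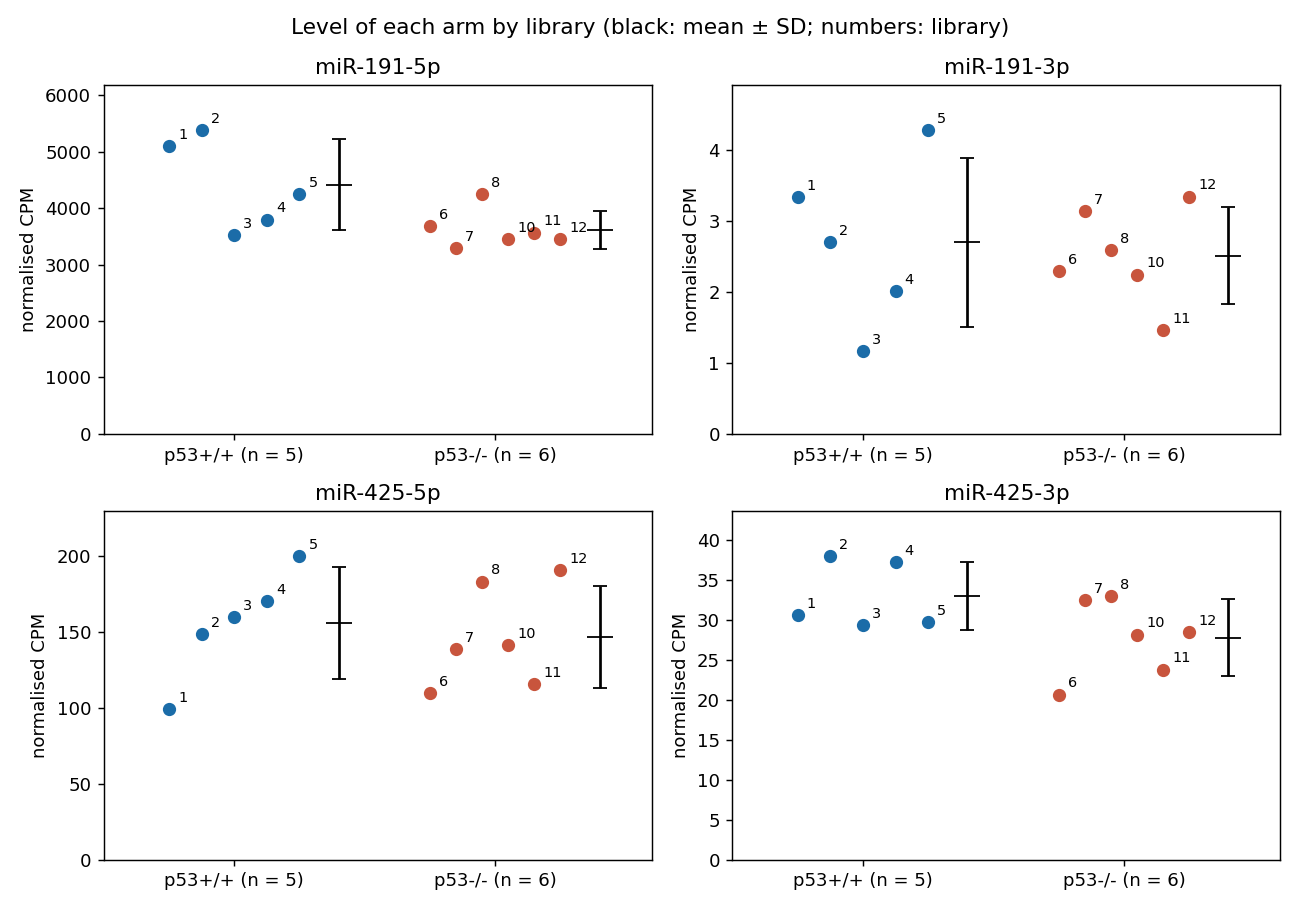
Level of each arm in normalised CPM by library, with p53+/+ libraries in blue and p53-/- libraries in red; numbers name the library, and black marks give the mean and SD (n = 5 and n = 6). miR-191-5p is highest in libraries 1 and 2, while miR-425-5p is lowest in library 1.

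Ratios within a library do not depend on how libraries are scaled. Mir191 gave its 5p arm almost alone. There were 1529, 1985.0, 3005, 1879.8 and 994 miR-191-5p reads per miR-191-3p read in p53+/+ libraries 1 to 5, and 1607, 1049, 1643, 1537, 2441 and 1031 in p53-/- libraries 6, 7, 8, 10, 11 and 12. Library 3 was the highest and library 5 the lowest, both p53+/+. Few reads stood behind the 3p arm: in library 11, with 4, the 95% Wilson interval of the ratio ran from 949 to 6279. The spread over the 11 libraries, an SD of 0.48 on the log2 scale, was as large as the 0.47 that read counting alone would give. The mean log2 ratio was 10.70 ± 0.56 (SD, n = 5) with p53 and 10.47 ± 0.42 (SD, n = 6) without, a difference of -0.23 (two-sided exact permutation p = 0.455, adjusted p = 0.513 over the 4 ratios compared). Leaving out p53+/+ library 3 gave -0.046, and leaving out p53+/+ library 5 gave -0.43.

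Mir425 used both arms. The ratio of miR-425-5p to miR-425-3p reads was 3.25, 3.92, 5.45, 4.58 and 6.72 in p53+/+ libraries 1 to 5 and 5.32, 4.27, 5.56, 5.03, 4.86 and 6.71 in the p53-/- libraries in order. Libraries 5 and 12 were the highest, 1 of each genotype, and libraries 1 and 2 the lowest. The 95% Wilson intervals of library 1 (2.46 to 4.30) and library 5 (5.57 to 8.11) did not meet, and the SD over libraries, 0.32 on the log2 scale, exceeded the 0.15 from counting alone. The intervals hold the counting error of reads alone, and copies of one molecule could not be told apart in the counts. Between genotypes the mean log2 ratio was 2.21 ± 0.41 (SD, n = 5) with p53 and 2.39 ± 0.22 (SD, n = 6) without, which is 0.18 higher (exact permutation p = 0.385, adjusted p = 0.513). It changed sign, to -0.075, without libraries 1 and 2.

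Set beside other hairpins, Mir191 was among the most one-sided and Mir425 was not. Hairpins were compared where both arms were tested and each was listed under 1 hairpin. In 52 of these the 5p arm was higher and in 51 the 3p arm, with a median preference of 12.7-fold in either direction. Mir191, at a geometric mean of 1524-fold, ranked 6 by preference and 17 by summed level. Mir425, at 4.94-fold, ranked 73 and 58. Of the 5 hairpins with the highest summed level, mir-122, the main hepatocyte hairpin, gave 2439 times more 5p than 3p, mir-192 gave 975 times, mir-21a 6826 times and mir-30a 20.6 times. mir-148a gave 123 times more 3p than 5p. A strong preference can be seen only in abundant hairpins, since the minor arm must itself reach the filter.

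**Figure D3:**
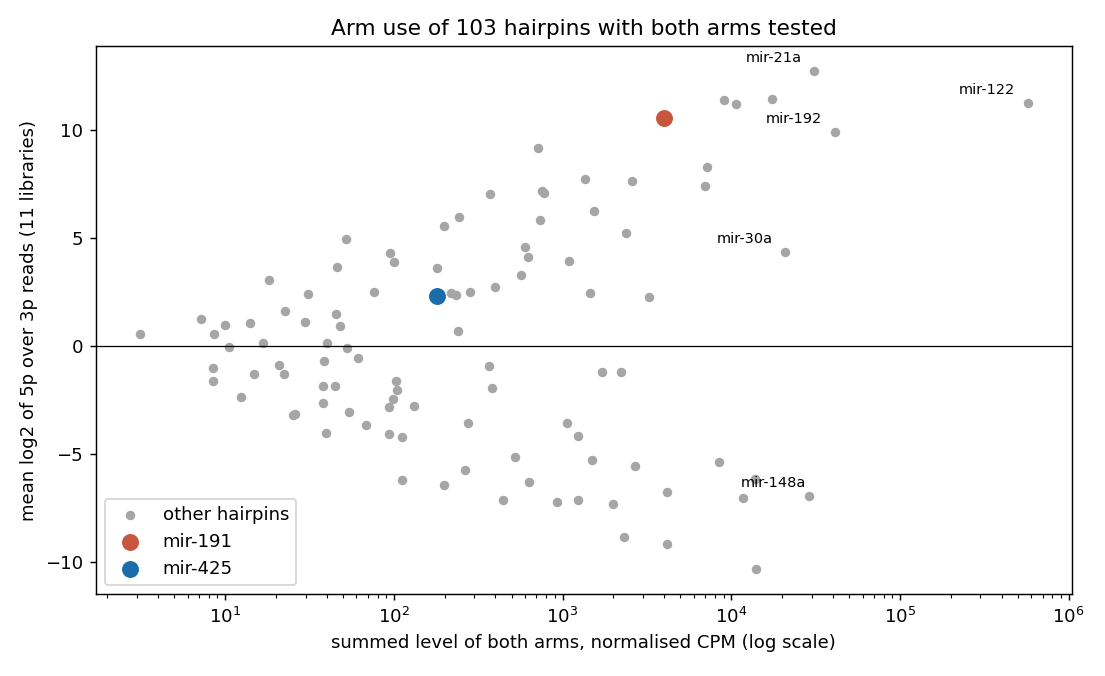
Mean log2 ratio of 5p to 3p reads over 11 libraries against the summed level of both arms (normalised CPM, log axis) for hairpins with both arms tested. mir-191 (red) lies at the 5p end with the most one-sided hairpins, and mir-425 (blue) near the middle.

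The main arms of the neighbouring hairpins did not keep a fixed proportion. There were 51.4, 36.2, 22.0, 22.3 and 21.3 miR-191-5p reads per miR-425-5p read in p53+/+ libraries 1 to 5, and 33.6, 23.8, 23.2, 24.4, 30.9 and 18.1 in p53-/- libraries 6, 7, 8, 10, 11 and 12. Libraries 1, 2, 6 and 11 were above 30, while the other 7 lay between 18.1 and 24.4. The 95% Wilson intervals of the extremes, 44.9 to 59.0 in library 1 and 17.1 to 19.1 in library 12, were far apart, and the SD over libraries of 0.43 on the log2 scale stood against 0.06 from counting alone. The high libraries included the 3 with the lowest total counts, and library 6 at 5243933 counts. The mean log2 ratio was 4.84 ± 0.57 (SD, n = 5) with p53 and 4.65 ± 0.32 (SD, n = 6) without. The difference of -0.19 had an exact permutation p of 0.513, adjusted p = 0.513, and without p53+/+ library 1 it was 0.020. For the minor arms, the log2 ratio of miR-191-3p to miR-425-3p was -3.65 ± 0.73 (SD, n = 5) with p53 and -3.43 ± 0.32 (SD, n = 6) without, which is 0.22 higher (exact permutation p = 0.513, adjusted p = 0.513), and without p53+/+ library 3 it was near 0.

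**Figure D4:**
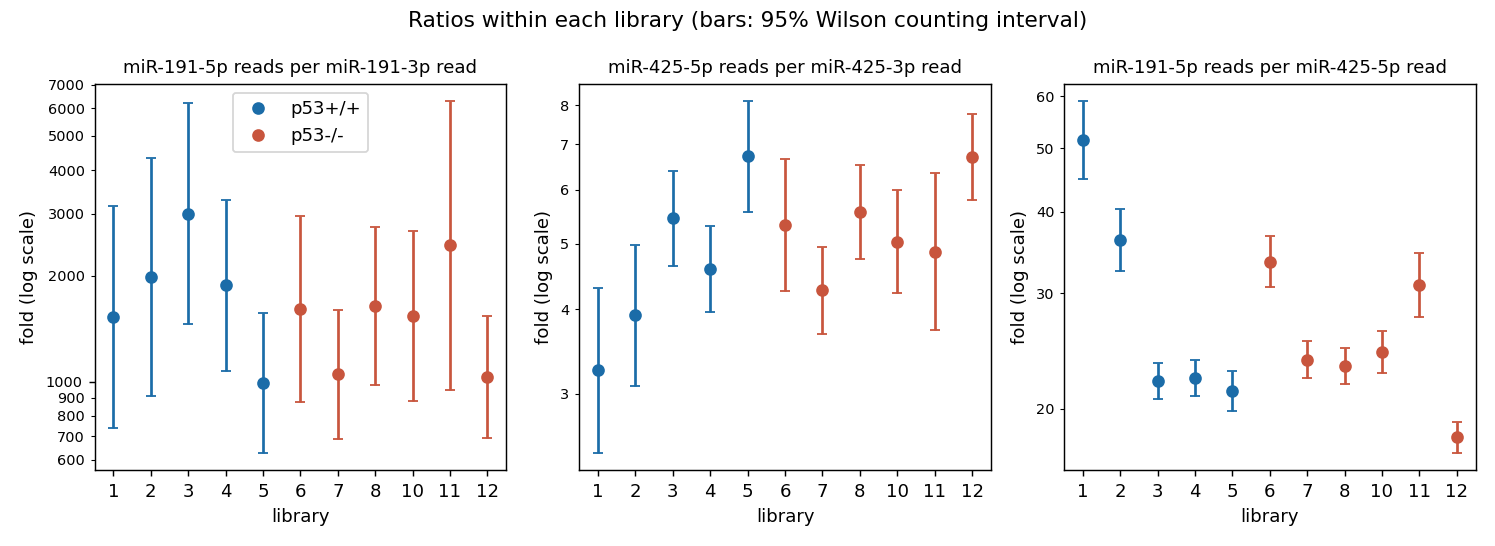
Reads of one arm per read of another in each library on log axes, p53+/+ in blue and p53-/- in red; bars are 95% Wilson counting intervals. The intervals of the miR-191 arms mostly overlap, while miR-191-5p per miR-425-5p read ranges from 18.1 in library 12 to 51.4 in library 1.

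Across the 11 libraries no pair of arms passed a two-sided permutation test of correlation, over 4 pairs examined on log2 normalised CPM. All arms of a library share its total count and preparation. miR-191-5p and miR-425-5p had Pearson's r of -0.13 (permutation p = 0.713, adjusted p = 0.713) and Spearman's rho of 0.01 (permutation p = 0.989, adjusted p = 0.989). Without libraries 1 and 2, the farthest from the median of miR-191-5p, r was 0.49. It was 0.24 without library 1 alone and -0.17 without library 2 alone. In CPM on the total count, with all 11 libraries, it was 0.18, while with DESeq2 size factors it was -0.25. The sign of the relation thus turned on library 1 and on whether any scaling beyond the total count was used. miR-191-5p and miR-191-3p had r of 0.37 (permutation p = 0.269, adjusted p = 0.538). Their rho was 0.21 (permutation p = 0.542, adjusted p = 0.723), and r was 0.31 without libraries 1 and 2. miR-425-5p and miR-425-3p had r of 0.46 (permutation p = 0.153, adjusted p = 0.538) and rho of 0.31 (permutation p = 0.357, adjusted p = 0.723), and r of 0.35 without libraries 1 and 6, the farthest from the median of miR-425-5p. For this pair r was 0.60 without library 1 alone, 0.70 without libraries 1 and 2 and 0.27 without library 6. For miR-191-3p and miR-425-3p r was 0.23 (permutation p = 0.493, adjusted p = 0.658) and rho 0.22 (permutation p = 0.517, adjusted p = 0.723), and r was near 0 without libraries 3 and 11.

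The miRNAs whose pattern over the 11 libraries was most like that of a main arm came from elsewhere in the genome. For miR-191-5p these were miR-19b-3p (r = 0.889), miR-16-5p (0.859), miR-29a-3p (0.850), miR-872-3p (0.844) and miR-361-5p (0.837), with r of 0.534 to 0.765 without libraries 1 and 2. In that order, miR-425-3p ranked 77, miR-191-3p 90 and miR-425-5p 218 of 387. For miR-425-5p they were miR-106b-5p (0.885), miR-185-5p (0.828), miR-24-2-5p (0.827), miR-99a-5p (0.807) and miR-27b-5p (0.799), with r of 0.709 to 0.936 without libraries 1 and 2. miR-425-3p ranked 72 and miR-191-5p 287 of 387 there. These are the highest of many correlations and are given as a description.

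Because miR-191-5p and miR-425-5p are commonly used as references, their spread was set beside that of 24 other miRNAs used so, all of them tested. The SD of log2 normalised CPM over the 11 libraries was 0.24 for miR-191-5p, 0.34 for miR-425-5p, 0.25 for miR-425-3p and 0.46 for miR-191-3p, against a median of 0.45 over the 388 tested miRNAs and 0.30 over the 24. miR-191-5p ranked 3 of the 26 from the least spread, after miR-221-3p (0.22) and miR-23a-3p (0.23) and just ahead of miR-93-5p (0.24) and miR-107-3p (0.25). miR-425-5p ranked 18. The position of miR-191-5p depended on scaling and on libraries: with CPM on the total count its SD was 0.33 and its rank 8, and without libraries 1 and 2 it was 0.13 and ranked 1.

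Of the 24 others, 0 were called between genotypes in edgeR, with 6 at an unadjusted p under 0.05 (4 below 0 and 2 above), where the share over all tested was 17.3%. DESeq2 called 1 of 24, miR-30e-5p, against 5.57% of all miRNAs with an adjusted p. In the fit 14 lay below 0 and 10 above. Their median was -0.06 on the log2 scale (-0.01 over all tested). Those with the smallest p were miR-30e-5p (-0.76, adjusted p = 0.174 in edgeR), miR-186-5p (-0.66, adjusted p = 0.174), miR-151-3p (0.56, adjusted p = 0.190) and miR-423-5p (0.39, adjusted p = 0.211). The values of miR-191-5p (-0.29) and miR-425-5p (-0.09) lay within the range of the 24, from -0.76 to 0.56.

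**Figure D5:**
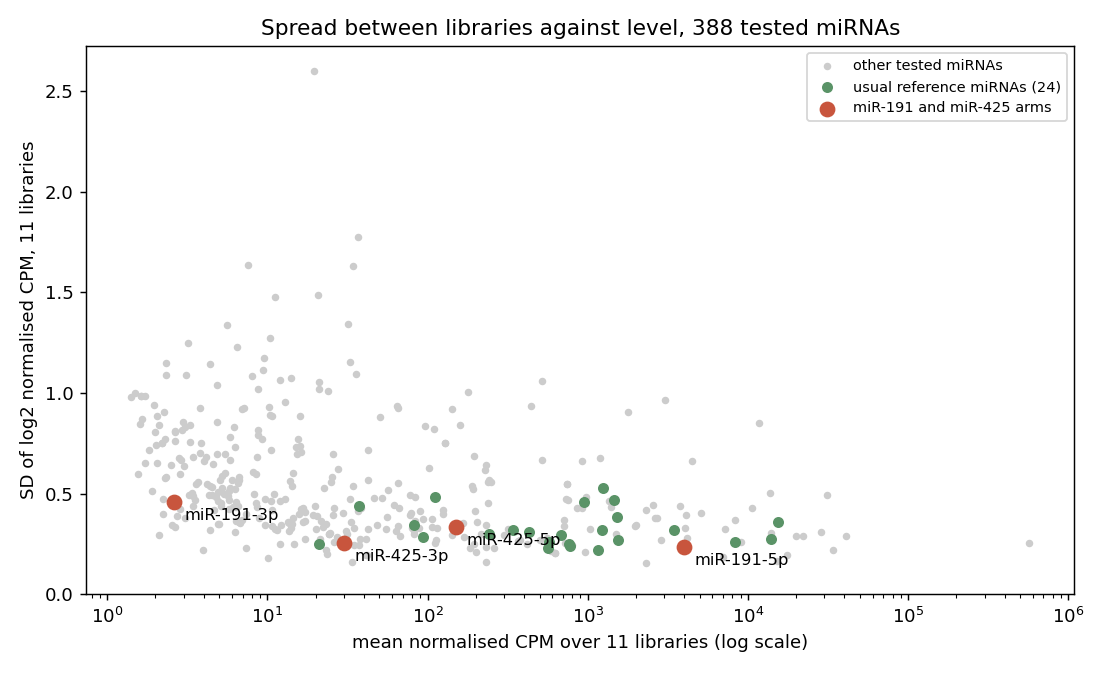
SD of log2 normalised CPM over 11 libraries against mean level (log axis) for the 388 tested miRNAs, with 24 usual reference miRNAs in green and the miR-191 and miR-425 arms in red. miR-191-5p (0.24) lies at the low edge, and miR-191-3p (0.46) among miRNAs of few reads.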

How the data were processed

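RNA came from 50 mg pieces of liver, per the labels' protocols. The deposited table gives a read count for each mature miRNA at each hairpin. GRCm38 and limma are named in the submitters' processing notes, and the aligner, the counter and adapter handling were not given in the sources used here. A deposited table of CPM, which the authors scaled over all entries of a library, served only as an alternative. Where a name had several hairpins its highest count was used. The 4 arms have 1 hairpin each.

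Genotypes were compared on the counts with the quasi-likelihood test of edgeR 4.0.16 (R 4.3.3), with TMM scaling, the filterByExpr filter, genotype as the only term and Benjamini-Hochberg adjustment over 388 miRNAs at a threshold of 0.05. The test was first tried on simulated data. Log2 normalised CPM used a prior count of 2, and log2 ratios added 0.5 to each count. Ratios were compared by exact permutation and correlations by 100000 resamples, two-sided and adjusted over 4. DESeq2 1.42.0 and limma 3.58.1 gave alternatives, and hairpins were folded with ViennaRNA 2.7.2. SEs are the log2 fold change over the root of F. The descriptions name 1 lane, lane 4, and an HA number of unstated meaning, which was 406, 407 and 411 in p53-/- libraries 6, 7 and 8 and 573 to 588 in all others. With the latter alone the miR-191-5p difference was -0.36 (edgeR, adjusted p = 0.597), and no arm was called. Total counts ran from 1905609 to 6682492, which sets the precision of low counts.

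The arms, lists and tests were chosen with earlier results of these data known. Named were the 4 arms, miR-34a-5p, miR-122-5p, the 5 miRNAs most like each main arm, the 4 reference miRNAs with the least spread and the 4 with the smallest p, and the 5 most abundant hairpins with both arms tested. Names of marker lists (hepatocyte, erythroid, leukocyte, endothelial, mesenchymal and stellate, biliary and epithelial, pancreas) were matched to the table. miR-489-3p, the leukocyte markers named singly and the genes of the locus were named after their values or places were seen.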

Additional observations from a re-analysis of the deposited data

How the results depend on the processing

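No paired analysis was possible because replicate numbers run across both genotypes and none is shared. No arm was called under any alternative at an adjusted p of 0.05; for miR-191-5p the unadjusted p was 0.0498 in the exact permutation test (-0.27) and 0.0362 in DESeq2. The number of miRNAs called was 1 in all settings except DESeq2, with 17, and from 1 to 1 with a library left out. miR-191-5p was below 0 in all 22 alternatives, from -0.41 to -0.05. Scaled to miR-191-5p, miR-191-3p was at 0.25, miR-425-5p at 0.14 and miR-425-3p at 0.013. miR-191-3p was at 0.12 without p53+/+ libraries 1 and 2 and 0.18 without the 3 shallowest libraries, which was added after the data were seen. With each library left out, it ran from -0.31 to 0.20, miR-191-5p from -0.41 to -0.22, miR-425-5p from -0.22 to -0.02 and miR-425-3p from -0.34 to -0.17. In the same cases the genotype difference in the log2 ratio of miR-191-5p to miR-191-3p ran from -0.43 to -0.046, that of miR-425-5p to miR-425-3p from 0.049 to 0.31, that of miR-191-5p to miR-425-5p from -0.30 to 0.020 and that of miR-191-3p to miR-425-3p from -0.0019 to 0.44. Without libraries 1 and 2, the difference in the miR-425-5p to miR-425-3p ratio was -0.075 and that in miR-191-5p to miR-425-5p 0.20; without the 3 shallowest libraries they were -0.053 and 0.14. The correlation of miR-191-5p with miR-425-5p was -0.25 with DESeq2 size factors and -0.25 on deviations from the genotype means. It was 0.18 on total counts, 0.49 without the 2 libraries farthest from the median, 0.49 without libraries 1 and 2, 0.49 without the 3 shallowest, and from -0.22 to 0.24 with a library left out. The causes of these changes were not tested. Depth limits miR-191-3p most, at 4 to 24 reads a library.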

Other observations

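Taking miR-191-5p as the reference sets its own genotype difference of -0.29 to 0 and so, by construction, moves every other miRNA up by about that much. That difference was -0.05 without p53+/+ libraries 1 and 2. Scaled to miR-191-5p, the median log2 fold change of the 388 tested miRNAs was 0.24 in place of -0.01, with 282 above 0 and 106 below in place of 190 and 198. On either scale edgeR called 1 miRNA, miR-34a-5p, a direct target of p53. It had between 8.73 and 31.6 reads per 1000 miR-191-5p reads in the p53+/+ libraries and between 1.06 and 3.58 in the p53-/- libraries. These ranges describe a miRNA already called in the same data. The log2 fold change of miR-34a-5p was -3.10 on the miR-191-5p scale (adjusted p = 0.00108 in edgeR) and -3.33 with TMM.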
